A study of Caenorhabditis elegans with 22 samples.

Results

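The 4 loci described here are the 10 kb bins on Caenorhabditis elegans chromosome III that hold rpl-3, rpn-13, rps-14 and rpt-6. They are 4 of the 10030 nuclear 10 kb bins of the series, and they were chosen from their ratio of Dam::EMR-1 to GFP::Dam methylation in wild type. The rpl-3 bin lies in the left arm (459 bins), the rpn-13 and rps-14 bins in the centre (460 bins) and the rpt-6 bin in the right arm (460 bins), where arms and centre are the outer and inner sections of a chromosome split into 3 equal lengths. In wild type, rps-14, rpl-3 and rpn-13 had the 3 lowest ratios among 108 bins of ribosome and proteasome genes on all chromosomes, and rpt-6 had the highest of the 24 such bins on III. Wild-type values are therefore given as a description of how the loci were picked, with no test.

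The series measured DNA adenine methylation (DamID) in L1 larvae, where Dam fusions are made in the intestine after recombination by FLP under the elt-2 promoter. The fusions ran at trace level off the uninduced hsp-16.41 promoter. Each fusion was measured in 4 backgrounds. The combination was mrg-1 RNAi in cec-4(ok3124) larvae, cec-4 was the cec-4(ok3124) deletion on control RNAi, mrg-1 RNAi had an intact cec-4 gene, and wild type was on control RNAi. The mothers fed on RNAi bacteria for 66 h at 20 °C. Their larvae hatched without food and were then fed bacteria lacking Dam for 2.5 h in liquid. Each group held biological replicates 1, 2 and 3, but for mrg-1 RNAi with intact cec-4 only replicates 2 and 3 of each fusion were used.

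Dam methylates adenine in GATC wherever the fused protein brings it. EMR-1 is the worm emerin and sits in the inner nuclear membrane, so Dam::EMR-1 marks DNA that meets the nuclear rim, while GFP::Dam moves freely and marks DNA that is accessible. CEC-4 is a perinuclear chromodomain protein that anchors DNA carrying methylated H3K9. MRG-1 binds active chromatin through its own chromodomain. Ribosomal proteins and proteasome subunits are made in nearly all cells, and in worms the autosome arms, more than the centres, are known to lie near the lamina.

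Libraries held 2240348 to 18553316 nuclear reads, and the median 10 kb bin held 79 to 518 reads. DNA methylation, not RNA, is measured, so the tissue label could be checked only through GFP::Dam levels. The 13 bins of intestine marker genes (14 of 15 genes matched) had a median of 127 CPM (reads scaled to library depth) in GFP::Dam, against 39.4 for 5 muscle bins, 39.8 for 6 neuron bins, 89.5 for 6 hypodermis bins and 48.4 for all tested bins. No list had a bin at 0. The 1 kb bins over the cec-4 gene held 68 to 359 GFP::Dam reads in the combination and cec-4 libraries and 126 to 567 in those of mrg-1 RNAi and wild type. The labels do not give the ends of the deletion, so these reads do not check the genotype.

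The gene rpl-3 encodes a protein of the large ribosomal subunit near its peptidyl transferase centre, and lies at chromosome III, 3867854 to 3869587 (build ce11). Its bin, 3860001 to 3870000, also holds acs-19, an acyl-CoA synthetase gene, and ends of brc-1, the worm BRCA1, and of tir-1, the worm SARM1. In Dam::EMR-1 libraries the bin had 10.5, 28.2 and 33.3 CPM in the combination, 34.8, 18.9 and 16.4 CPM in cec-4, 9.64 and 109.5 CPM with mrg-1 RNAi, and 3.20, 17.5 and 4.02 CPM in wild type. In GFP::Dam libraries it had 518, 414 and 589 CPM in the combination, 737, 425 and 784 CPM in cec-4, 498 and 628 CPM with mrg-1 RNAi, and 520.5, 479 and 626 CPM in wild type. All 11 Dam::EMR-1 values lay below all 11 GFP::Dam values. The same held for the 8 libraries per fusion outside wild type, the background used to choose the loci. How many of all tested bins have such a separation was not counted, here or for the loci below. It therefore only describes the loci. The GFP::Dam level was higher than that of 98.7% to 99.6% of the tested left arm bins in every library. Dam::EMR-1 at rpl-3 was not low for the arm throughout, standing above 9.01% to 74.1% of those bins and above their median in 3 of 11 libraries.

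The gene rpn-13 encodes a ubiquitin receptor of the proteasome's regulatory particle (6340113 to 6341928). Its bin, 6340001 to 6350000, also holds the tRNA methyltransferase gene trmt-10C.2. In Dam::EMR-1 libraries the rpn-13 bin had 41.7, 29.2 and 16.5 CPM in the combination, 33.5, 16.6 and 25.0 CPM in cec-4, 3.55 and 163 CPM with mrg-1 RNAi, and 3.60, 18.2 and 4.46 CPM in wild type. In GFP::Dam libraries it had 589, 343 and 1026 CPM in the combination, 498, 253 and 1569 CPM in cec-4, 389 and 1801 CPM with mrg-1 RNAi, and 592, 341 and 676 CPM in wild type. The fusions did not overlap here either, with or without wild type, and GFP::Dam stood above 91.2% to 99.8% of the tested bins of the centre. Dam::EMR-1 stood above 4.84% to 94.3% of them, and above their median in 5 of 11 libraries.

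The gene rps-14 encodes a protein of the small ribosomal subunit (7178991 to 7179588). Its bin, 7170001 to 7180000, had far fewer reads. Dam::EMR-1 libraries held 3, 17 and 61 reads there in the combination, 162, 4 and 25 in cec-4, 2 and 100 with mrg-1 RNAi, and 3, 4 and 1 in wild type. Scaled to depth these were 0.446 to 19.9 CPM, against 60.8 to 179.9 CPM in GFP::Dam. The fusions again did not overlap, with or without wild type. Unlike at rpl-3 and rpn-13, GFP::Dam was not extreme at rps-14, where it stood above 31.9% to 82.2% of the tested centre bins and above their median in 8 of 11 libraries. Dam::EMR-1 stood above the median in 2 of 11.

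The gene rpt-6 encodes an ATPase of the ring at the base of the regulatory particle (12370456 to 12372608). Its bin, 12370001 to 12380000, also holds the glutaredoxin gene glrx-5 and pph-4.2, a catalytic subunit gene of protein phosphatase 4. In Dam::EMR-1 libraries the rpt-6 bin had 0.899, 44.3 and 41.9 CPM in the combination, 38.7, 35.4 and 38.0 CPM in cec-4, 45.9 and 52.5 CPM with mrg-1 RNAi, and 178, 51.9 and 75.4 CPM in wild type. GFP::Dam had 22.1 to 54.6 CPM at rpt-6, below the median of the right arm in all 11 libraries. The fusions overlapped at rpt-6. Dam::EMR-1 exceeded the median right arm bin there in 1 of 11 libraries, wild type replicate 1.

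**Figure D1:**
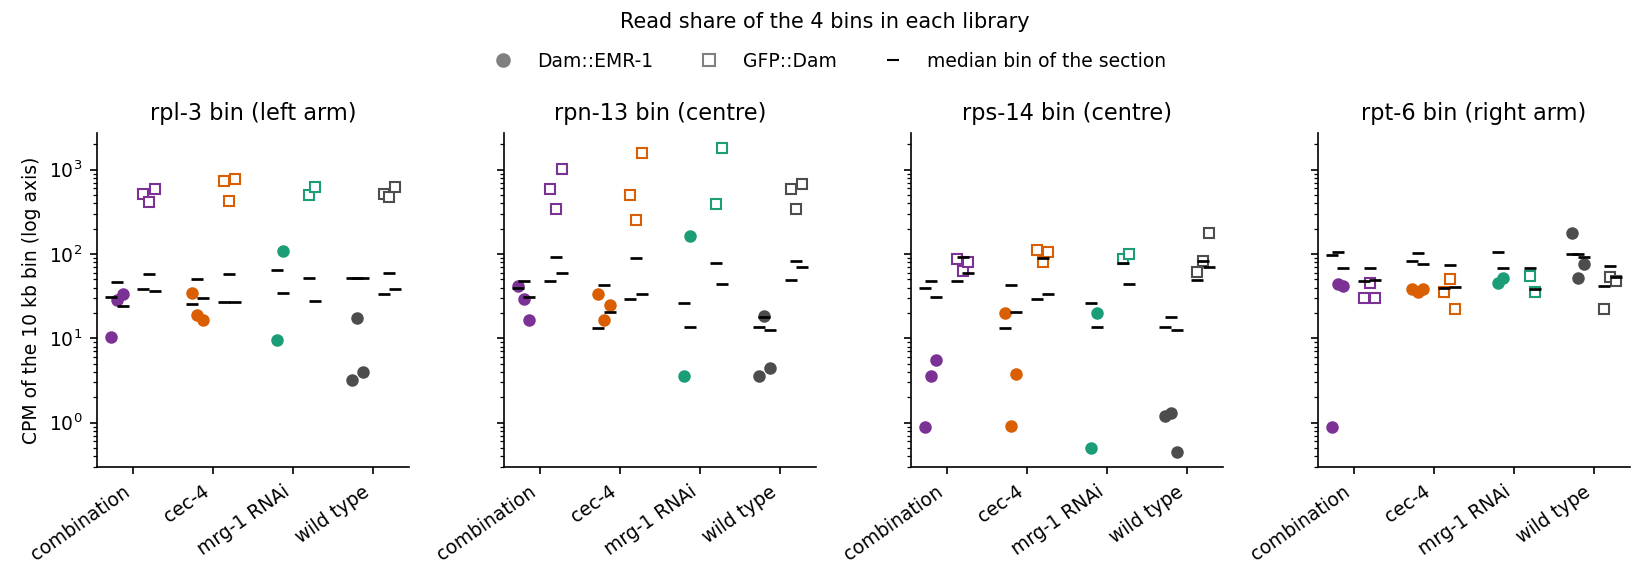
CPM (log axis) of the 4 bins in each of the 22 libraries, with Dam::EMR-1 as filled circles, GFP::Dam as open squares and the median tested bin of the same section of chromosome III as a dash. At rpl-3, rpn-13 and rps-14 every circle lies below every square, while at rpt-6 they overlap. The share of all tested bins with such a separation was not counted. Wild type, among the libraries drawn, was used to choose the loci.

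Single libraries stood apart. At rpl-3 and rpn-13 the Dam::EMR-1 library of mrg-1 RNAi replicate 3 had the highest of the 11 Dam::EMR-1 levels, and at rps-14 it and cec-4 replicate 1 had the 2 highest, at 19.9 and 19.8 CPM. The Dam::EMR-1 library of combination replicate 1 held 3 reads at rpt-6, against 209 and 468 in combination replicates 2 and 3.

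The first question was whether the low ratio at the 3 loci picked as low in wild type is also found in the libraries of the other backgrounds. A pair value is the log2 of the CPM of a Dam::EMR-1 library over that of the GFP::Dam library with the same replicate number, with 1 added to each. At rpl-3 the pair values were −5.50, −3.83 and −4.10 in the combination, −4.36, −4.42 and −5.49 in cec-4, −5.55 and −2.51 with mrg-1 RNAi, and −6.96, −4.70 and −6.97 in wild type. At rpn-13 they were −3.79, −3.51 and −5.88 in the combination, −3.86, −3.86 and −5.91 in cec-4, −6.42 and −3.45 with mrg-1 RNAi, and −7.01, −4.16 and −6.95 in wild type. At rps-14 they were −5.54, −3.81 and −3.66 in the combination, −2.44, −5.40 and −4.48 in cec-4, −5.87 and −2.27 with mrg-1 RNAi, and −4.81, −5.17 and −6.97 in wild type. Every pair was below 0 at the 3 loci, and at each of them the backgrounds overlapped.

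A bin was called where its adjusted p was under 0.05 over 9960 tested bins (edgeR quasi-likelihood test, Benjamini-Hochberg). Of the 4 loci, rpl-3, rpn-13 and rps-14 were lower in Dam::EMR-1 in the combination, 3 of 4, where 22.9% of all tested bins were lower. In cec-4 also 3 of 4 were lower, against 20.3% of all bins, and with mrg-1 RNAi 2 of 4, rpl-3 and rpn-13, were lower, against 21.1%. That last share rests on 2102 bins, and without Dam::EMR-1 mrg-1 RNAi replicate 3 or GFP::Dam mrg-1 RNAi replicate 3 it was 1032 or 1161 bins. In wild type, which was used to choose the loci, 29.0% of all bins were lower. The loci and the tests were chosen with earlier results of these data known, so the calls may not be independent of the choice.

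At rpl-3 the fitted log2 ratio was −4.53 ± 0.98 in the combination (SE, adjusted p = 0.00143), −5.20 ± 1.01 in cec-4 (adjusted p = 0.000836) and −3.13 ± 1.13 with mrg-1 RNAi (adjusted p = 0.0337), and in wild type it was −6.16 ± 1.07. At rpn-13 it was −4.76 ± 1.27 in the combination (adjusted p = 0.00542), −5.44 ± 1.31 in cec-4 (adjusted p = 0.00322) and −3.78 ± 1.48 with mrg-1 RNAi (adjusted p = 0.0480), and in wild type −6.12 ± 1.36. At rps-14 it was −4.58 ± 1.17 in the combination (adjusted p = 0.00410), −3.78 ± 1.12 in cec-4 (adjusted p = 0.0114) and −3.03 ± 1.33 with mrg-1 RNAi, which was not called (adjusted p = 0.0733), and in wild type −6.91 ± 1.37. With the replicate number as a block the mrg-1 RNAi ratio of rps-14 was −3.61 and was called (adjusted p = 0.0177). At rpt-6 no background was called at 10 kb, with ratios of −0.33 ± 0.73 in the combination, −0.17 ± 0.73 in cec-4 and 0.16 ± 0.89 with mrg-1 RNAi (adjusted p = 0.727, 0.864 and 0.898), and 1.10 ± 0.74 in wild type. In the 100 kb bin around rpt-6 the mrg-1 RNAi ratio was 0.95 and was called higher (adjusted p = 0.0489).

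The mrg-1 RNAi values rest on 2 libraries per fusion and moved with each. Without Dam::EMR-1 replicate 3 the ratios were −6.37 at rpl-3, −8.98 at rpn-13 and −7.94 at rps-14. The rpl-3 and rpn-13 calls ended without Dam::EMR-1 replicate 2 (−2.20 and −2.80, adjusted p = 0.161 and 0.168) and without GFP::Dam replicate 3 (−2.35 and −1.48, adjusted p = 0.166 and 0.477), and with the libraries of mrg-1 RNAi only (adjusted p = 0.0850 and 0.128). The rpn-13 call lay at the threshold and was lost in 14 of 28 alternatives, among them 11 of 18 that left out a library of another background (adjusted p of 0.0369 to 0.0573 over the 18). In the authors' deposited table of log2 ratios, rpl-3 stood at −4.37 in the combination, −4.74 in cec-4, −3.37 with mrg-1 RNAi and −5.93 in wild type, and rpt-6 at −0.32, 0.21, 0.21 and 1.82 in the same order. The same deposited table put rpn-13 at −4.12, −4.34, −4.32 and −5.51, and rps-14 at −4.47, −3.74, −3.28 and −6.30.

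The choice of the loci also named the rest of the same chromosome section, which differs between them. The mean pair value of the tested bins lay between −0.54 and 0.73 in the left arm over the 11 pairs, between −2.47 and −0.41 in the centre, and between 0.24 and 0.93 in the right arm. The rpl-3, rpn-13 and rps-14 bins were below the mean of their section in all 8 pairs of the combination, cec-4 and mrg-1 RNAi, and the rpt-6 bin in 6 of these 8. The median share of bins in the same section with a still lower pair value, over these 8 pairs, was 1.87% for rpl-3, 4.73% for rpn-13, 4.62% for rps-14 and 32.2% for rpt-6. In mrg-1 RNAi replicate 3 it was 15.4%, 24.0%, 37.4% and 44.7%, the highest of the 8 at each locus.

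Against the mean of its section, rpl-3 stood at −4.17 ± 0.68 in the combination, −4.74 ± 0.68 in cec-4 and −4.32 ± 0.83 with mrg-1 RNAi (SE, limma, adjusted p = 0.000459, 0.000337 and 0.00226), and the wild-type value was −6.61. The rpn-13 bin stood at −3.64 ± 0.73, −3.62 ± 0.73 and −3.33 ± 0.89 in that order (adjusted p = 0.00136, 0.00180 and 0.0103), with −3.81 in wild type. The rps-14 bin stood at −3.58 ± 0.74, −3.19 ± 0.74 and −2.45 ± 0.91 (adjusted p = 0.00170, 0.00402 and 0.0424), with −3.42 in wild type. So 3 of 4 loci were below their section in each of these backgrounds, where 25.0%, 21.6% and 19.9% of all tested bins were (24.9% in wild type). The mrg-1 RNAi call of rps-14 was lost with the replicate block (−2.29, adjusted p = 0.0806) and when either mrg-1 RNAi pair was left out, giving −0.64 without replicate 2 and −4.27 without replicate 3 (adjusted p = 0.673 and 0.0545). It was also lost without cec-4 replicate 3 or combination replicate 2 (adjusted p = 0.0508 and 0.0518). Without replicate 2 the calls of rpl-3 (−2.78, adjusted p = 0.0608) and rpn-13 (−1.82, adjusted p = 0.235) were lost as well.

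The rpt-6 bin did not stand clear of the right arm. Its pair values were −4.04, −0.03 and 0.46 in the combination, 0.11, −0.52 and 0.74 in cec-4, −0.24 and 0.54 with mrg-1 RNAi, and 2.96, −0.05 and 0.64 in wild type. Against the mean of the right arm it stood at −1.75 ± 0.76 in the combination, −0.54 ± 0.76 in cec-4 and −0.32 ± 0.93 with mrg-1 RNAi (limma, adjusted p = 0.0633, 0.573 and 0.794), and at 0.57 in wild type. Combination replicate 1 and wild type replicate 1 were the lowest and the highest of the 11 pairs. Without combination replicate 1 the difference from the arm was −0.22.

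**Figure D2:**
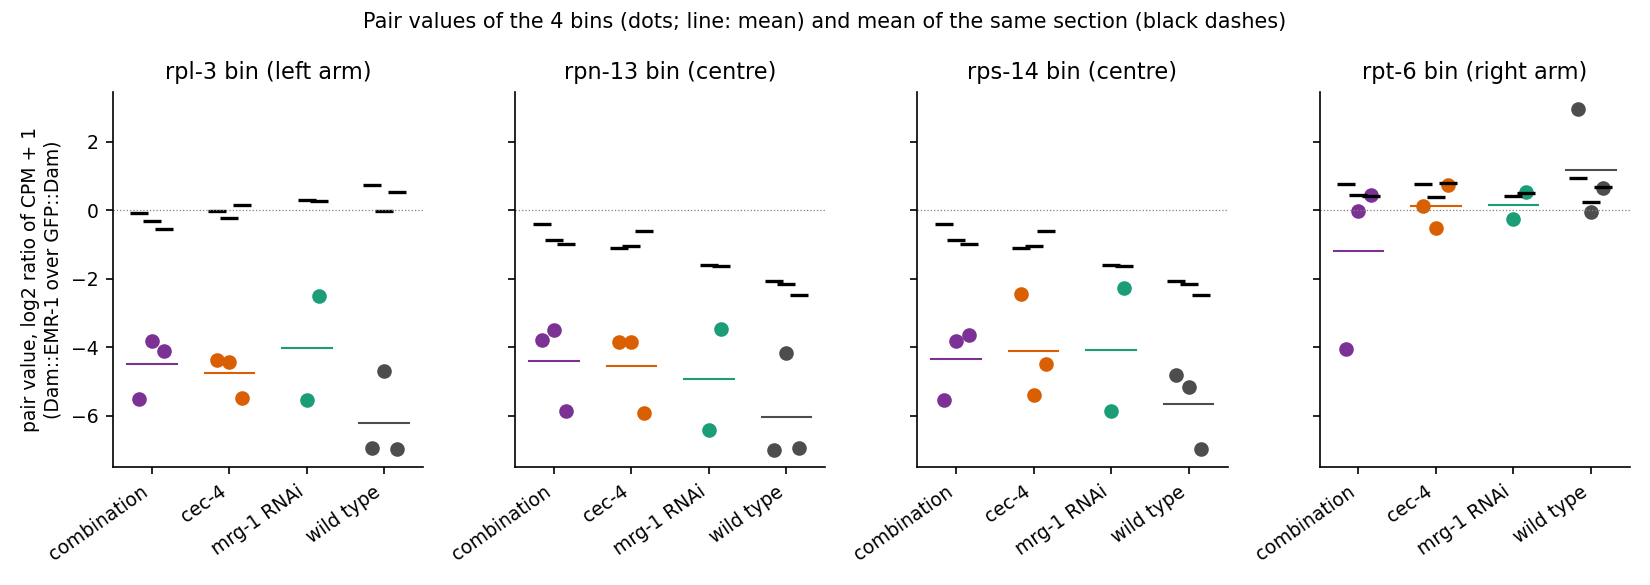
Pair values (log2 ratio of Dam::EMR-1 over GFP::Dam CPM plus 1) of the 4 bins, 1 dot per replicate number in order, with the background mean as a line and the mean of the tested bins in the same section and pair as a black dash. The dots of rpl-3, rpn-13 and rps-14 lie below their dashes in all 11 pairs, and those of rpt-6 in 8. Without wild type, which was used to choose the loci, these counts are 8 of 8 pairs and 6 of 8.

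The next comparisons ask whether either perturbation adds to the other. Between the combination and cec-4, which differ by mrg-1 RNAi, the difference of log2 ratios was 0.67 at rpl-3 (95% confidence interval −1.84 to 3.18), 0.68 at rpn-13 (−2.52 to 3.89), −0.80 at rps-14 (−3.78 to 2.18) and −0.15 at rpt-6 (−2.30 to 1.99). Between the combination and mrg-1 RNAi, which differ by cec-4, it was −1.40 at rpl-3 (−4.21 to 1.41), −0.98 at rpn-13 (−4.56 to 2.60), −1.55 at rps-14 (−4.90 to 1.81) and −0.49 at rpt-6 (−2.88 to 1.91). None was called, with or without the replicate block. The intervals come from the fit without the block, so they include spread between replicate numbers, and no interval was computed with it. They leave room for differences of several-fold in either direction. Over all 9960 bins 0% were called in both comparisons with edgeR and 0 bins with DESeq2, and 80 and 304 bins had an unadjusted p under 0.05 (edgeR). Without Dam::EMR-1 mrg-1 RNAi replicate 2, 16 bins were called higher in the combination than with mrg-1 RNAi. Without Dam::EMR-1 mrg-1 RNAi replicate 3 the difference between the combination and mrg-1 RNAi turned to 1.84 at rpl-3, 4.22 at rpn-13 and 3.36 at rps-14.

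Within replicate numbers these differences had no common sign at most loci. The combination minus cec-4 was −1.13, 0.59 and 1.39 at rpl-3 for replicates 1 to 3, and −3.10, 1.59 and 0.82 at rps-14. At rpn-13 the 3 differences were close to 0, at 0.07, 0.35 and 0.04. The combination minus mrg-1 RNAi was positive in replicate 2 and negative in replicate 3 at rpl-3, rpn-13 and rps-14, where it was 1.72 and −1.59, 2.91 and −2.42, and 2.06 and −1.39.

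Differences from wild type share the wild-type libraries whose extreme ratios chose the loci, so a shift away from the wild-type value is built into them. They were 1.63 in the combination, 0.96 in cec-4 and 3.03 with mrg-1 RNAi at rpl-3, then 1.36, 0.68 and 2.34 at rpn-13, and 2.33, 3.13 and 3.88 at rps-14. At rpt-6, picked for its high value, they were −1.43, −1.28 and −0.95. The mrg-1 RNAi differences rest on 1 library. Without Dam::EMR-1 mrg-1 RNAi replicate 3 they were −0.21 at rpl-3, −2.85 at rpn-13 and −1.03 at rps-14, and within replicate 2 they were −0.85, −2.26 and −0.70. Of all tested bins 0% were called in each of these comparisons with edgeR. Unadjusted p was under 0.05 in 732 bins for the combination, 551 for cec-4 and 188 for mrg-1 RNAi, and DESeq2 called 25, 9 and 0 bins. When replicate 2 of Dam::EMR-1 in wild type was left out, 33 bins were called higher and 1 lower in the combination (edgeR) and 12 higher in cec-4, and without Dam::EMR-1 mrg-1 RNAi replicate 2 there were 10 lower and 2 higher with mrg-1 RNAi.

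The neighbourhood of each locus was read from the 2 bins on either side. Of the 16 flanking bins, 10 were lower and 2 higher in the combination, 11 and 2 in cec-4, and 9 and 2 with mrg-1 RNAi. Of all tested bins 22.9%, 20.3% and 21.1% were lower in that order, and 23.7%, 21.1% and 18.5% higher. Lower bins made up 30.1%, 33.6% and 33.0% of the centre of III. In its left arm they were 23.1%, 19.8% and 11.9%, and in its right arm 16.3%, 13.9% and 12.4%. The wild-type counts were 11 and 2, where 29.0% of all bins were lower and 25.4% higher. Most flanks of rpl-3, rpn-13 and rps-14 were low, and those of rpt-6 differed by side.

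Next to rpl-3, the bins at 10 and 20 kb to its right lie inside tir-1, a TIR-domain adaptor gene of neuronal and immune signalling. They had log2 ratios of −4.87 and −4.76 in the combination, −5.15 and −4.08 in cec-4, −5.93 and −5.38 with mrg-1 RNAi, and −5.16 and −4.10 in wild type. All were called outside wild type. On the left, the bin of brc-1 was lower too (−4.23, −4.13 and −6.70 in the combination, cec-4 and mrg-1 RNAi, and −4.60 in wild type). The next bin, which holds maph-1.3, was called in cec-4 (−2.89, adjusted p = 0.0258) and not in the combination (−2.23, adjusted p = 0.0651) or with mrg-1 RNAi (−2.50, adjusted p = 0.101), and stood at −4.98 in wild type. With the replicate block it was called in the combination too (−2.32, adjusted p = 0.0284).

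The low region around rpn-13 had an edge on its left. The bin 20 kb to the left, with part of gar-2, a muscarinic acetylcholine receptor gene, was called in no background and had −0.43 ± 0.80 in the combination, −0.33 ± 0.80 in cec-4, −0.87 ± 0.99 with mrg-1 RNAi and −1.66 ± 0.83 in wild type. The bin between them, with let-767, a steroid dehydrogenase gene, was lower at −3.63, −4.06 and −3.69 in the 3 perturbed backgrounds and −4.82 in wild type. To the right, both bins of akap-1, the second also holding thoc-2 of the THO complex, had ratios between −4.04 and −5.99 and were called in the combination, cec-4 and mrg-1 RNAi.

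Around rps-14, the bin on the right holds 2 further ribosomal genes, rpl-36 and rps-21. It was lower at −4.13 in the combination, −6.04 in cec-4 and −3.20 with mrg-1 RNAi (adjusted p = 0.00177, 0.000395 and 0.0257), and had −5.69 in wild type. The bin on the left, with rnp-7 and syf-2, both genes of RNA processing, and most of the acyl-CoA synthetase gene acs-4, was lower at −5.78, −2.61 and −7.09 in that order, with −6.60 in wild type. The bin 20 kb to the left, with parts of ogt-1 and nuo-4, was not called in the 3 perturbed backgrounds (−2.15, −3.37 and −1.97), but was in cec-4 with the replicate block (−3.64, adjusted p = 0.0231).

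The flanks of rpt-6 changed sign within 30 kb. The bin 20 kb to its left, with pph-4.1, another catalytic subunit gene of protein phosphatase 4, was near 0 and not called (−0.10 in the combination, 0.38 in cec-4, 0.22 with mrg-1 RNAi and 0.68 in wild type). The bin next to rpt-6 on its left holds his-72, a gene of histone H3.3, and was lower in the combination (−1.29 ± 0.52, adjusted p = 0.0462) and cec-4 (−1.87 ± 0.52, adjusted p = 0.00869). It was not called with mrg-1 RNAi (−1.42 ± 0.63, adjusted p = 0.0799) except with the replicate block (−1.37, adjusted p = 0.0434), and had −0.61 ± 0.51 in wild type. The bin on the right was higher at 1.45, 1.70 and 2.08 in the combination, cec-4 and mrg-1 RNAi, with 3.04 in wild type. The bin after it, with the start of tat-1, a gene of an aminophospholipid transporter, was higher at 2.67, 1.85 and 2.63 (adjusted p = 0.00626, 0.0419 and 0.0253), with 1.99 in wild type.

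**Figure D3:**
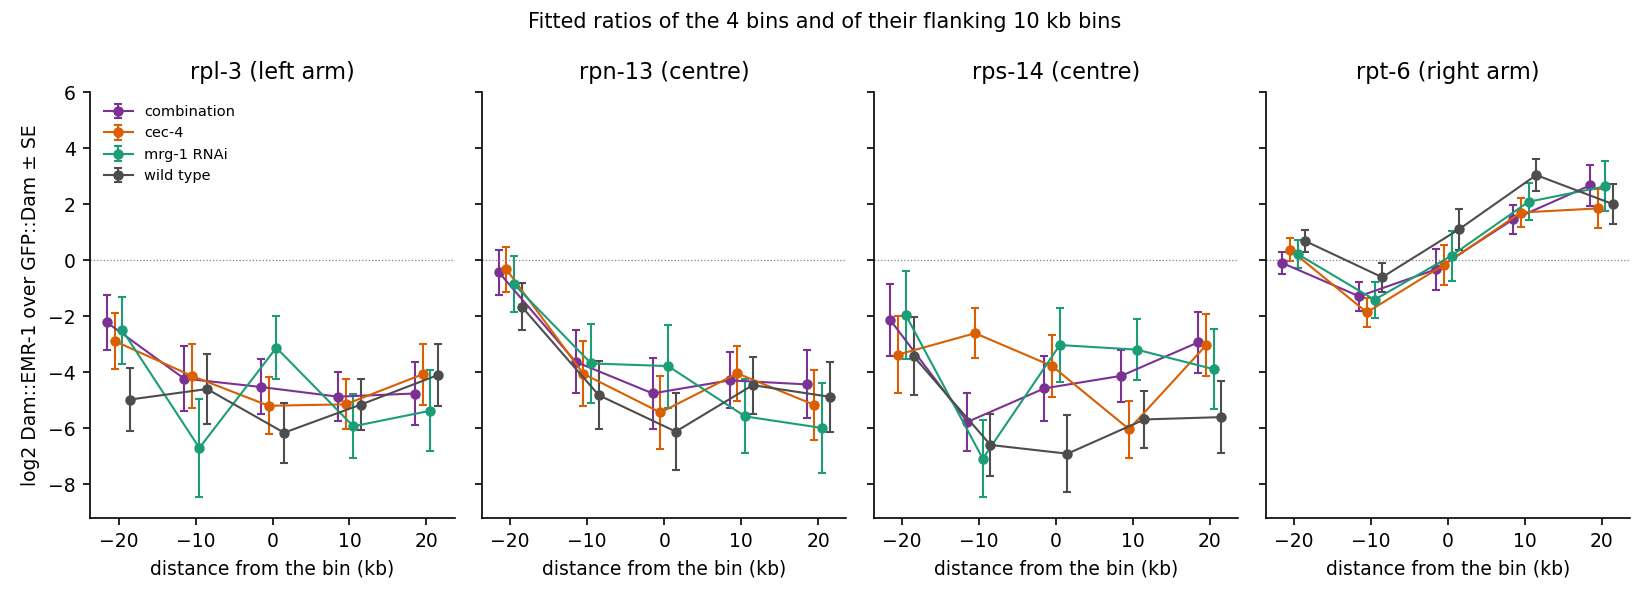
Fitted log2 ratio of Dam::EMR-1 over GFP::Dam (± SE) of the 4 bins at distance 0 and of the bins 10 and 20 kb to each side, by background, with points shifted sideways for legibility. Ratios are below 0 at every distance around rpl-3, rpn-13 and rps-14. Around rpt-6 they lie near 0 at 20 kb left, below 0 at 10 kb left and above 0 on the right.

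Inside the 4 bins, 26 of 40 bins of 1 kb passed the filter on low counts, and 8 had no read in any library. The bins called lower numbered 16 in the combination, 14 in cec-4 and 12 with mrg-1 RNAi, and 0 were higher, also at an unadjusted p under 0.05 (edgeR). Over 71099 tested 1 kb bins 15.4%, 11.5% and 7.50% were lower and 2.12%, 0.603% and 0.359% higher (21.5% and 4.09% in wild type). At 1 kb these calls depended on scaling. With library size in place of TMM the median ratio of all 1 kb bins rose by 0.63 in the combination, 0.76 in cec-4 and 0.74 with mrg-1 RNAi. The share of calls that were lower was then 64.6%, 63.3% and 91.8%, against 87.9%, 95.0% and 95.4% with TMM, and the bins called lower in the 4 loci came to 11, 8 and 4, where 3.89%, 2.52% and 1.05% of all 1 kb bins were lower. With the replicate block the loci had 18, 16 and 17 lower bins, where 23.3%, 17.1% and 16.1% of all 1 kb bins were lower.

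In the rpl-3 bin the reads of both fusions fell mostly in the same kilobase. The bin from 3868001 to 3869000, inside the rpl-3 gene, held 1401 of 1676 Dam::EMR-1 reads (83.6%) and 37491 of 58988 GFP::Dam reads (63.6%) over all libraries. Its log2 ratio was −4.65 ± 1.20 in the combination and −5.91 ± 1.27 in cec-4, both called (adjusted p = 0.0134 and 0.00627), and −3.05 ± 1.36 with mrg-1 RNAi, not called (adjusted p = 0.143) except with the replicate block (−3.56, adjusted p = 0.0358). The 3 bins over acs-19 were called lower in all 3 perturbed backgrounds, with ratios between −4.51 and −10.31. The lowest (± 2.07, mrg-1 RNAi) rests on 1 Dam::EMR-1 read.

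In the rpn-13 bin the reads had 2 centres. The 2 bins over the rpn-13 gene held 24.7% and 20.3% of the 84768 GFP::Dam reads, and the bin from 6345001 to 6346000, which overlaps no annotated gene, held 49.5%. That intergenic bin also held 65.6% of the 1884 Dam::EMR-1 reads. Of its 1235 Dam::EMR-1 reads, 828 came from mrg-1 RNAi. There replicate 3 held 822 of the 836 Dam::EMR-1 reads of the 10 kb bin, so the share depends on this library. The intergenic bin held 200 Dam::EMR-1 reads in the combination, against 69 and 71 in the bins over the gene. In cec-4 it held 170, against 157 and 125. The bins over the gene were called lower in the combination (−5.94 and −5.78), in cec-4 (−6.21 and −6.24) and with mrg-1 RNAi (−11.28 ± 2.40 and −11.20 ± 2.30). With mrg-1 RNAi each of these bins held 2 Dam::EMR-1 reads, so the size of these ratios is poorly known. The intergenic bin was called in the combination (−5.78 ± 1.92) and cec-4 (−6.66 ± 2.00) and not with mrg-1 RNAi (−3.41 ± 2.10, adjusted p = 0.288).

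In the rps-14 bin, 4 bins in the middle, over the pseudogenes srb-8 and srb-9, had no read in any library. The last 2 bins, over the pseudogene srb-7 and rps-14, held 43.0% and 47.3% of the 9604 GFP::Dam reads and 48.7% and 45.3% of the 382 Dam::EMR-1 reads. Of these 382 reads, cec-4 replicate 1 gave 162 and mrg-1 RNAi replicate 3 gave 100, so the Dam::EMR-1 shares depend on these libraries. The bin over rps-14 itself (7179001 to 7180000) had −5.15 ± 1.52 in the combination and −4.87 ± 1.49 in cec-4 (adjusted p = 0.0249 and 0.0361) and −3.57 ± 1.73 with mrg-1 RNAi (adjusted p = 0.174, or 0.0221 with the replicate block). So the value of the 10 kb bin rests on about 2 kb of sequence.

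In the rpt-6 bin the kilobases went different ways. The 3 bins over rpt-6 held 11.5%, 26.1% and 24.9% of the 3495 GFP::Dam reads, and the first 2 of them had negative ratios in the combination (−3.21 and −4.20) and cec-4 (−3.70 and −2.86). With mrg-1 RNAi the first stood at −3.42 and the second at 0.52. Only the second passed the threshold, and only in the combination among the perturbed backgrounds (adjusted p = 0.0265). With the replicate block the first passed in the combination (−4.54, adjusted p = 0.0116) and cec-4 (−4.75, adjusted p = 0.0138). The bin from 12378001 to 12379000, over the pseudogene Y49E10.7, held 38.7% of the 2623 Dam::EMR-1 reads, against 17.8% of GFP::Dam reads. Its ratio was 1.14 ± 1.57 in the combination, 1.36 ± 1.59 in cec-4 and −2.28 ± 2.04 with mrg-1 RNAi, none called.

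**Figure D4:**
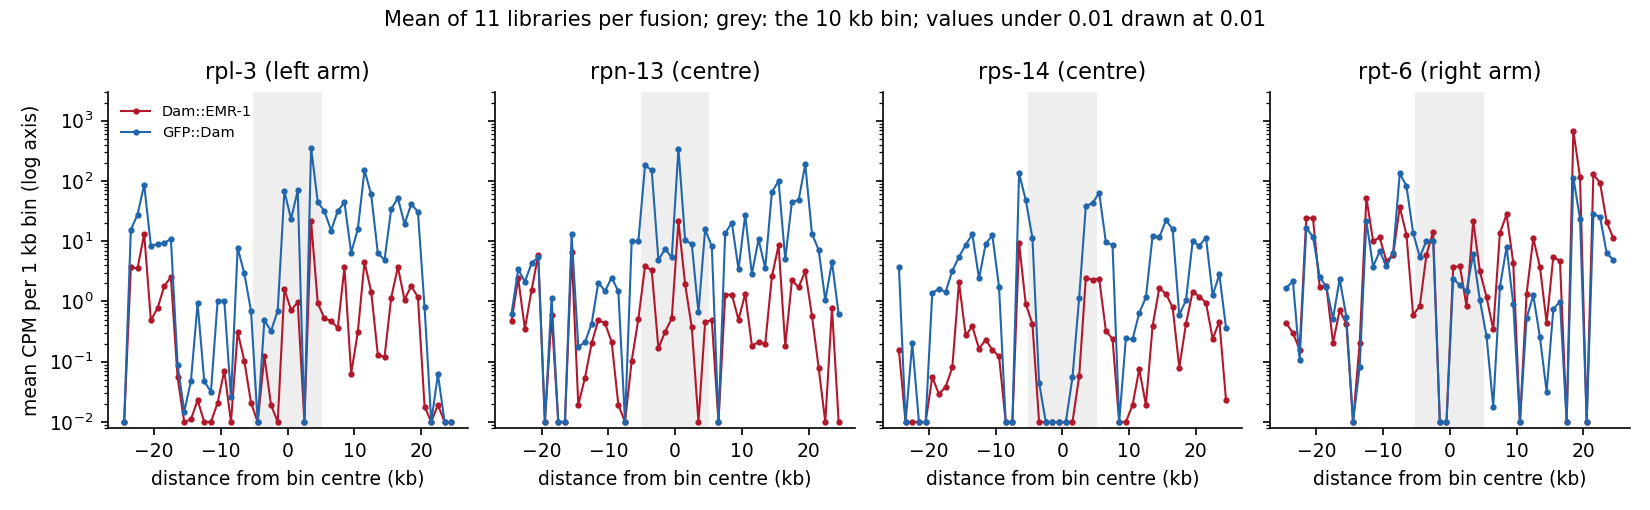
Mean CPM per 1 kb bin (log axis) over the 11 libraries of each fusion, against the distance from the centre of the 10 kb bin, whose extent is shaded. GFP::Dam lies above Dam::EMR-1 in almost every kilobase around rpl-3, rpn-13 and rps-14, while around rpt-6 the lines cross and Dam::EMR-1 is higher toward the right.

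The other ribosome and proteasome genes of chromosome III were mostly low as well. The list has 26 genes on III, 18 of the cytosolic ribosome and 8 of the proteasome, in 24 bins, all of them tested. Lower bins numbered 18 of 24 in the combination (75.0%), 19 in cec-4 (79.2%) and 16 with mrg-1 RNAi (66.7%), with 0 higher in each with edgeR, also at an unadjusted p under 0.05, or with DESeq2. The median log2 ratio of the 24 bins was −3.35, −3.04 and −3.16, against 0.11, 0.17 and −0.06 over all tested bins. Without the 4 loci 15, 16 and 14 of 20 bins were lower. The list too was chosen with earlier results of these data known, so its counts may not be independent of that choice. In wild type, whose ratios were known when the loci were picked, the median was −3.55, against −0.11 over all bins.

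Most of the list lies in the centre of III, where low bins are common in any case. There 13 of 16 list bins were lower in the combination, cec-4 and mrg-1 RNAi alike, against 30.1%, 33.6% and 33.0% of all tested centre bins. In the left arm 5, 6 and 3 of 7 were lower, against 23.1%, 19.8% and 11.9% of the arm. In the right arm the rpt-6 bin is the only one of the list, where 16.3%, 13.9% and 12.4% of the arm were lower. Measured against the mean of the section, 16, 18 and 12 of the 24 bins were below it (limma), against 25.0%, 21.6% and 19.9% of all tested bins. With the replicate block the list counts were 17, 20 and 17. The share of all bins was not counted with the block, so these last counts have no comparison.

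Among ribosomal genes of the large subunit in the centre, rpl-6, rpl-21, rpl-23 and rpl-35 were lower in the combination, cec-4 and mrg-1 RNAi, and so were rpl-9 and the rpl-36 bin. For rpl-6 the ratios were −3.20, −4.17 and −3.93 in that order, and −4.54 in wild type. For rpl-35 they were −2.10, −2.88 and −3.62, and −3.45 in wild type. The rpl-21 bin had −2.76, −2.79 and −4.88, and −4.20 in wild type. Of small-subunit genes, rps-13, 30 kb from the rpn-13 bin, had −4.46, −4.94 and −5.77 (adjusted p = 0.000339, 0.000243 and 0.000999), and −5.64 in wild type. The rps-12 bin was lower too, at −2.81, −3.27 and −2.90, and had −4.73 in wild type.

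In the left arm rpl-13A was nearly level over backgrounds, at −3.55 in the combination, −3.60 in cec-4 and −3.54 with mrg-1 RNAi, all called, and −3.38 in wild type. The rpl-37.2 bin was lower in the combination (−3.50) and cec-4 (−2.75) and not called with mrg-1 RNAi (−1.10, adjusted p = 0.200), and had −3.26 in wild type. At rps-27A, a ubiquitin-ribosomal fusion gene, the ratio was −3.64 in the combination, −3.65 in cec-4 and −2.26 with mrg-1 RNAi, all called, and −1.15 in wild type. At rps-15A it was −3.72 and −3.50 in the combination and cec-4, both called, −1.46 with mrg-1 RNAi, not called, and −1.83 in wild type. The rps-3A bin was called lower in cec-4 (−2.77, adjusted p = 0.0284) and not in the combination (−1.91, adjusted p = 0.0994) or with mrg-1 RNAi (−2.94, adjusted p = 0.0571, or 0.0312 with the replicate block), and had −2.46 in wild type. The rps-29 bin, the outermost of the list, stood at 0.04 ± 0.49, 0.13 ± 0.49 and 0.16 ± 0.60 and was not called, with 0.50 in wild type.

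The proteasome genes of III lay at different levels. The bins of rpn-3 and rpn-6.2, subunits of the regulatory lid, were lower in the combination (−3.76 and −3.04), cec-4 (−3.83 and −2.72) and mrg-1 RNAi (−3.65 and −3.83). The rpn-6.1 bin was lower in the combination (−3.80) and with mrg-1 RNAi (−3.85) and not called in cec-4 (−2.77, adjusted p = 0.0588, or 0.00887 with the replicate block). The bin shared by rpn-2 and rps-3 was lower in cec-4 (−2.94) and with mrg-1 RNAi (−3.33) and not called in the combination (−1.51, adjusted p = 0.0963). The ATPase gene rpt-3, a ring partner of rpt-6, was called in none of the 3 (−2.08, −2.62 and −2.89). Neither was pbs-6, a subunit of the catalytic core, at −0.49, −1.20 and −0.85, though with the replicate block it was called in cec-4 (−1.18, adjusted p = 0.0475). In all, 4 of 8 proteasome bins were lower in the combination and in cec-4 and 5 with mrg-1 RNAi. Of 17 ribosome bins 14, 16 and 12 were, with the rpn-2 and rps-3 bin in both sets. Of all tested bins 22.9%, 20.3% and 21.1% were lower. Below their section (limma) were 4, 4 and 1 proteasome bins and 12, 15 and 11 ribosome bins. Of all tested bins 25.0%, 21.6% and 19.9% were. Median ratios were −2.56, −2.75 and −3.49 for the proteasome and −3.50, −3.27 and −3.13 for the ribosome. The 2 sets were not tested against each other.

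**Figure D5:**
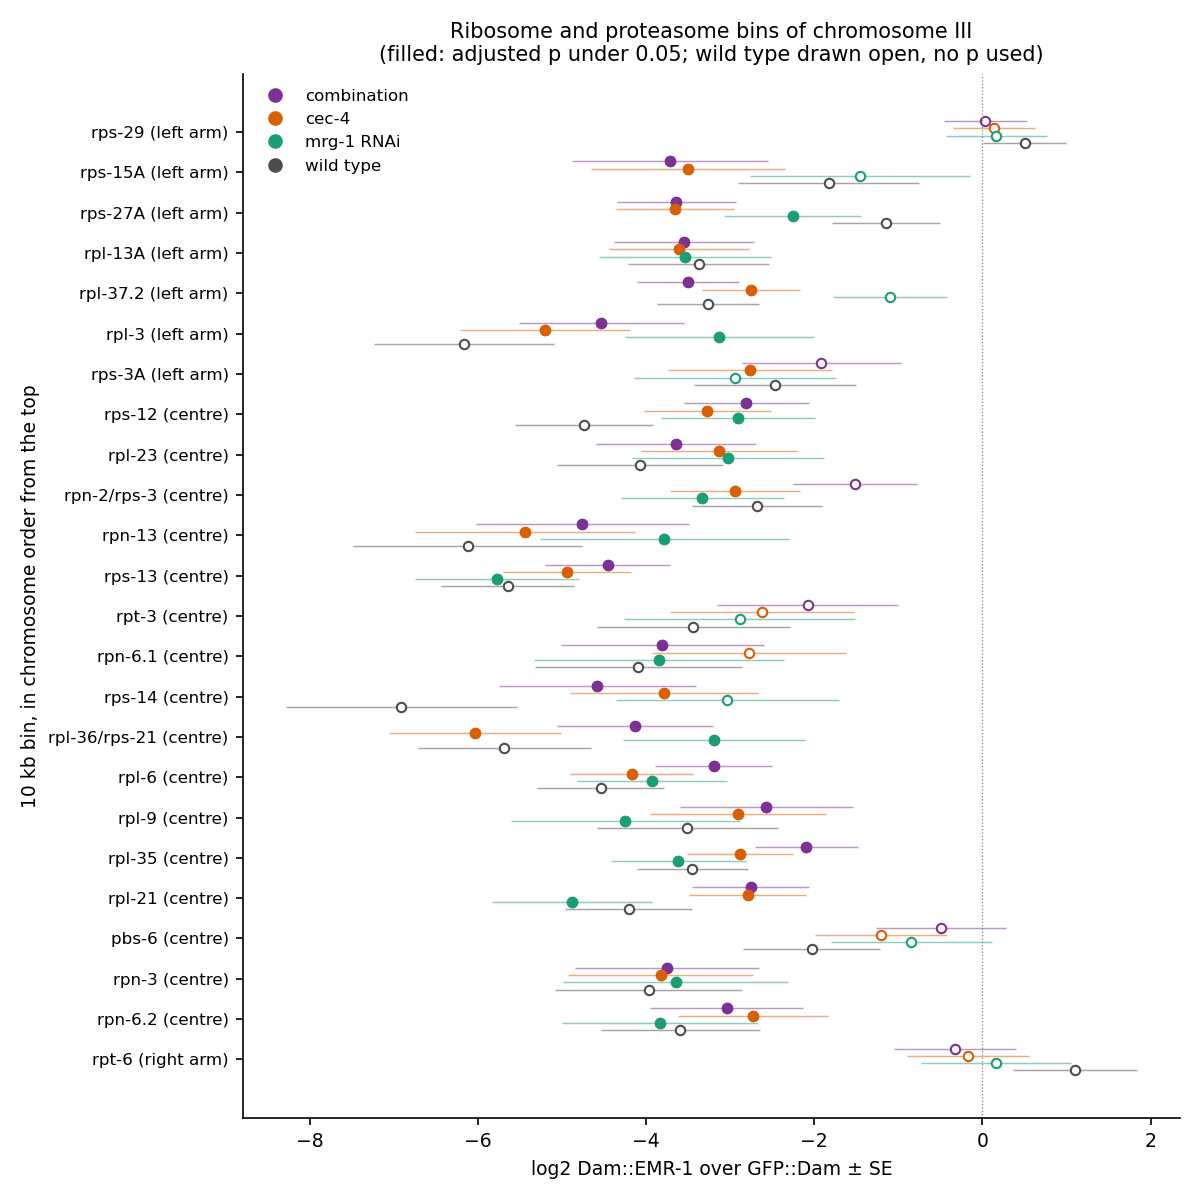
Fitted log2 ratio (± SE) of the 24 ribosome and proteasome bins of chromosome III, in chromosome order from the top, by background. Filled points had an adjusted p under 0.05 and wild-type points are drawn open, with no p used; nearly all bins lie left of 0, with rps-29 and rpt-6, at the outer ends of the list, near or right of it.

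The bins most like each locus were found by the root mean square difference of pair values over the 11 pairs. The wild-type pairs among them, whose extreme ratios chose the loci, were not left out. A likeness among rpl-3, rpn-13 and rps-14, and their distance from most bins, is therefore partly built in. Among ribosome and proteasome bins on all chromosomes, rpl-37.1 on chromosome II (0.67) and rpn-13 (0.90) were most like rpl-3, and rpl-3 (0.90) and rps-13 (0.97) most like rpn-13. For rps-14 they were rpl-3 (0.99) and rpl-37.1 (1.15). The same measure to rpl-3, rpn-13 and rps-14 had a median of 5.36, 5.42 and 5.01 over all bins. For rpt-6 the nearest were pbs-4 on chromosome I (1.09) and rpl-8 on chromosome V (1.45), against a median of 2.44. Outside the list, bins with no protein-coding gene of a standard symbol were passed over. The nearest of the others were bre-5 (chromosome IV, 0.59) for rpl-3 and txt-18 (chromosome II, 0.36) for rpn-13. For rps-14 it was nas-4 (chromosome III, 0.86) and for rpt-6 srh-116 (chromosome V, 0.72). The pairs of a replicate number were grown in parallel, and bins of a pair share both libraries.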

How the data were processed

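Read counts per bin of 1, 10 and 100 kb of build ce11 were deposited with no normalization, beside log2 ratios per background that the authors made. The sources used here do not name the aligner, its filters or the handling of repeats. Genes came from the RefSeq annotation of the same assembly. The 4 loci, the gene list and the tests were chosen with earlier results of these data known.

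Ratios came from 1 edgeR 4.0.16 fit (R 4.3.3, TMM, quasi-likelihood, filter on low counts) over 22 libraries in 8 groups, and differences from the section from limma 3.58.1 on pair values with a pseudocount of 1 CPM. Adjusted p-values are Benjamini-Hochberg over all tested bins, with a threshold of 0.05. The SE of a ratio is its size over the square root of F. Named genes were the 4 loci, the list on III and protein-coding neighbours within 20 kb with a standard symbol. For each locus the 2 most like bins of the list were named too. So was the 1 most like bin outside the list that holds a protein-coding gene of standard symbol, over 50 kb away or on another chromosome. Pseudogenes are named only to place 1 kb bins. The edgeR and limma steps were run on simulated counts with changes in cec-4 only, and limits were set for edgeR alone. The simulation had 1 fixed dispersion and no effect of replicate number, unlike these libraries. Few reads in a bin limit precision, and reads from amplified DNA are not independent molecules. CPM is relative to a library's total, so a change elsewhere moves every bin.

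Per the labels, strains of a replicate number were grown in parallel, so numbers pair the libraries. Deviations from group means correlated above 0.1 in 15 of 15 same-number pairs of GFP::Dam libraries, 12 of 15 of Dam::EMR-1 and 9 of 11 between the fusions. With 2 replicates of mrg-1 RNAi, its 2 values between the fusions are the same value (0.437) counted again. Pairs reuse libraries, and pairs of unlike number were not compared, so the counts do not measure the strength of the pairing. The alternatives were DESeq2 1.42.0, library-size scaling, no filter, 100 kb bins, a pseudocount of 5, the replicate block, a contrast's own libraries, the deposited log2 table and leaving out each library or pair.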

Additional observations from a re-analysis of the deposited data

How the results depend on the processing

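In the combination and cec-4 the lower ratios of rpl-3, rpn-13 and rps-14 were called in all 28 alternatives that give a p. Their differences from the section were called in all 16. Of these alternatives, 16 of the 28 and 8 of the 16 left out only a library or pair of another background. Those bear mainly on the shared estimate of the spread. With mrg-1 RNAi, the loci called lower numbered 0 with the contrast's own libraries only, and 0 to 3 when 1 library was left out, and those below their section 0 to 3. Leaving out 1 library gave 4 to 9 flanking bins and 6 to 18 list bins on III called lower with mrg-1 RNAi. Of the 1 kb bins in the 4 loci, 8 in cec-4 and 4 with mrg-1 RNAi were called lower with library-size scaling, and the same counts, 8 and 4, with no filter. Of the ratio calls at the 4 loci in 10 kb bins, the replicate block changed that of rps-14 with mrg-1 RNAi (−3.61), and of their differences from the section the same one (−2.29). Among the flanks it added 1 call in each of the 3 perturbed backgrounds, among the list 2 in cec-4 and 2 with mrg-1 RNAi, rps-14 included, and it ended 0 in both sets.

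Some values changed sign, among them the differences between the combination and mrg-1 RNAi. In 100 kb bins the combination minus mrg-1 RNAi was 0.015 at rpl-3, 0.33 at rpn-13 and 0.13 at rps-14, the combination minus cec-4 was 0.18 at rpt-6, and rpt-6 stood at 0.67 in the combination and 0.49 in cec-4 (0.95 and called with mrg-1 RNAi; 0.041 in cec-4 with library-size scaling). Over fits that left out 1 library, the combination minus cec-4 ranged from −0.58 to 1.22 at rpn-13, −1.68 to 1.25 at rps-14 and −0.84 to 0.41 at rpt-6. The combination minus mrg-1 RNAi ranged from −2.33 to 1.84 at rpl-3, −3.28 to 4.22 at rpn-13, −2.53 to 3.36 at rps-14 and −1.17 to 0.076 at rpt-6. The rpt-6 ratio ranged from −1.02 to 0.23 in the combination, −0.44 to 0.081 in cec-4 and −0.33 to 0.52 with mrg-1 RNAi, and against its section from −0.67 to 0.044 with mrg-1 RNAi. The cause was not tested. The difference of rpt-6 from its section in the combination ranged from −2.64 to −0.22 and was called in 5 of 16 alternatives. Library-size scaling moved the median 10 kb ratio by 0.08 in the combination, 0.20 in cec-4, 0.03 with mrg-1 RNAi and 0.15 in wild type. Few Dam::EMR-1 reads (1 to 162 per library at rps-14) limit what the low loci can show, and 2 pairs limit mrg-1 RNAi.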
